A study of Arabidopsis thaliana with 33 samples.

Results

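Expression of 4 genes of the TRICHOME BIREFRINGENCE-LIKE (TBL) family of Arabidopsis thaliana, TBL21, TBL38, TBL39 and TBL45, was followed along the root and across sorted root cell populations. The 4 genes were chosen by their intensities in these same arrays, for opposed patterns over the sections and sorted lines, so their own values are given as a description and no test was applied to them. They are 4 of 22746 probe sets on the array, and 4 of 23 TBL genes with a probe set of their own or a shared one, out of 45 TBL genes named in the TAIR10.1 annotation. The loci are AT5G15890 for TBL21, AT1G29050 for TBL38, AT2G42570 for TBL39 and AT2G30010 for TBL45, each with 1 probe set.

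The study hybridised 33 one-colour arrays with RNA from seedlings grown on standard medium. A root aged 7 days was cut from the tip upwards into 6 pieces of the meristematic zone, 2 of the elongation zone and 4 of the maturation zone, the last about 500 µm long each. A second root of the same age was cut into the same 12 sections, and 1 further array holds the columella, the root cap tissue below the stem cell niche. Sorted cells came from protoplasted roots of seedlings aged 5 to 6 days, with 1 array per reporter line here. The lines were COBL9 for hair cells, S32 for protophloem and metaphloem, S17 for the phloem pole pericycle, JO121 for the xylem pole pericycle, S4 for meristematic protoxylem and metaxylem, SUC2 for companion cells, RM1000 for lateral root primordium initials, and J2501 for a mixture of pericycle, xylem and phloem. The labels give no genotype beyond the line, and do not state what drives each reporter.

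Each array held the authors' deposited intensities on a linear scale with a median of 0.79 to 1.04, so a value near 1 lies near the middle of its array. No detection call came with the values. The spread of log2 intensities was 0.137 (SD over probe sets) on the columella array, 0.426 on the second elongation section of root 1 and 0.634 to 1.53 on the other 31 arrays. A value on those narrow arrays is therefore read with its percentile among all probe sets of the array. The description of that elongation section names root 2, while its title and the count of sections place it in root 1. Each position had 2 arrays, 1 per root, and each sorted population had 1, so the sorted values have no replicate error. In a section, which mixes tissues, fewer cells of a type and less RNA per cell cannot be told apart.

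TBL proteins carry a conserved plant domain and act mainly in the Golgi, where characterised members transfer acetyl groups onto xylan, mannan or xyloglucan before these polymers reach the wall. Acetyl groups alter how wall polymers pack together and how enzymes reach them. TBL38 has been described as an unusual member that removes acetyl groups from pectin in seed coat mucilage cells. Roles of TBL21, TBL39 and TBL45 in the root are not stated here. These arrays measured RNA, not acetylation.

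TBL21 was high in the first elongation section of both roots and in sorted hair cells. In root 1 its intensity over the 12 sections from the tip was 0.783, 0.644, 0.684, 0.682, 0.952 and 1.83 in the meristematic zone, 4.69 and 1.10 in the elongation zone, and 0.977, 0.808, 0.618 and 0.816 in the maturation zone. In root 2 it was 0.492, 0.443, 0.553, 1.53, 2.85 and 3.17, then 4.55 and 1.00, then 0.748, 0.596, 0.688 and 0.508. Both roots had the peak at the same section and nearly the same height, but the climb began earlier in root 2, where the last 3 meristematic sections already stood above 1.5. The next section up the root was 4.26-fold lower in root 1 and 4.53-fold lower in root 2, the steepest step of the TBL21 profile in either root. In rank that step ended at the 60.1st percentile in root 1 and the 62.0th in root 2, below the 94.7th and 91.9th of the peak section. All 8 maturation arrays were under 1.

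Averaged by zone, TBL21 was 1.19 higher in the elongation than in the meristematic zone on the log2 scale, 1.40 in root 1 and 0.97 in root 2. The value rests on the first elongation section: it was 0.66 without that section of root 1 and 0.64 without that section of root 2. The maturation zone lay below the elongation zone by a log2 difference of -1.64 (-1.52 in root 1 and -1.77 in root 2). Against the meristematic zone the maturation difference was -0.46, with -0.12 and -0.79 in the 2 roots, so the roots gave unlike sizes there.

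TBL38 peaked at the same section as TBL21 and stayed up further along the root. In root 1 it was 0.922, 0.752, 0.797, 0.932, 1.51 and 4.34 in the meristematic sections, 13.0 and 3.96 in the elongation sections, and 4.38, 2.53, 1.59 and 1.61 in the maturation sections. In root 2 it was 0.572, 0.631, 0.643, 1.13, 4.43 and 9.52, then 17.4 and 8.99, then 10.6, 5.27, 2.68 and 2.59. From the fourth section onwards root 2 had the higher value at every position, while both roots kept the same shape. In the narrow second elongation array of root 1 an intensity of 3.96 was the 99.4th percentile, against the 98.5th for 13.0 in the section before it, so the dip in that root is not seen in rank. In root 2 the ranks were the 97.7th percentile for the second elongation section and the 98.6th for the first.

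The zone means of TBL38 differed by 2.81 (log2) between elongation and meristematic zone, with 2.55 in root 1 and 3.07 in root 2, the largest elongation difference of the 4 genes. Its maturation zone differed from the elongation zone by -1.57 (-1.64 in root 1 and -1.49 in root 2). It remained above the meristematic zone by 1.24, with 0.91 and 1.57 in the 2 roots. TBL38 was the 1 gene of the 4 with this order of zones, elongation above maturation above meristem, in both roots and by more than 0.9 at each step.

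TBL39 ran the other way, with its high values in the meristematic zone. In root 1 it was 6.33, 8.04, 5.75, 8.94, 16.5 and 17.7 in the meristematic sections, 7.19 and 1.32 in the elongation sections, and 1.40, 1.14, 1.07 and 1.55 in the maturation sections. In root 2 it was 14.4, 10.95, 14.6, 25.9, 17.4 and 13.5, then 6.64 and 2.08, then 1.93, 1.05, 1.20 and 1.76. The highest section was the sixth in root 1 and the fourth in root 2. All 12 meristematic arrays lay between 5.75 and 25.9 and all 8 maturation arrays between 1.05 and 1.93. Within the elongation zone the second section was 5.44-fold lower than the first in root 1 and 3.19-fold lower in root 2. In rank it was at the 83.1st percentile in root 1 and the 86.0th in root 2, below the 96.7th and 94.6th of the first section.

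On the log2 scale TBL39 differed by -1.85 between elongation and meristematic zone (-1.63 in root 1 and -2.06 in root 2). The maturation zone lay a further -1.32 below the elongation zone (-1.28 and -1.37), a difference that was -0.71 without the first elongation section of root 1. Between maturation and meristematic zone it reached -3.17, with -2.91 and -3.43 in the 2 roots. TBL39 and TBL38 therefore crossed: in the first meristematic section TBL39 was at 6.33 and 14.4 in roots 1 and 2 while TBL38 was under 1, and from the first elongation section on TBL38 was the higher intensity in both roots. Intensities of different probe sets do not measure relative transcript number, so the crossing describes each gene against its own array only.

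TBL45 had no comparable profile along the root. Its intensity ran between 0.788 and 1.45 in root 1, highest in the first meristematic section, and between 0.612 and 1.62 in root 2, highest in the last maturation section. In no section of either root did it reach the 90th percentile of its array. The mean of the 2 roots spanned 0.95 on the log2 scale over the 12 positions, against 3.11 for TBL21, 4.45 for TBL38 and 3.96 for TBL39. The zone differences of TBL45 were 0.40 for elongation against meristem (0.16 and 0.64 in the 2 roots), 0.00 for maturation against elongation (-0.12 and 0.12) and 0.40 for maturation against meristem (0.04 and 0.76).

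**Figure D1:**
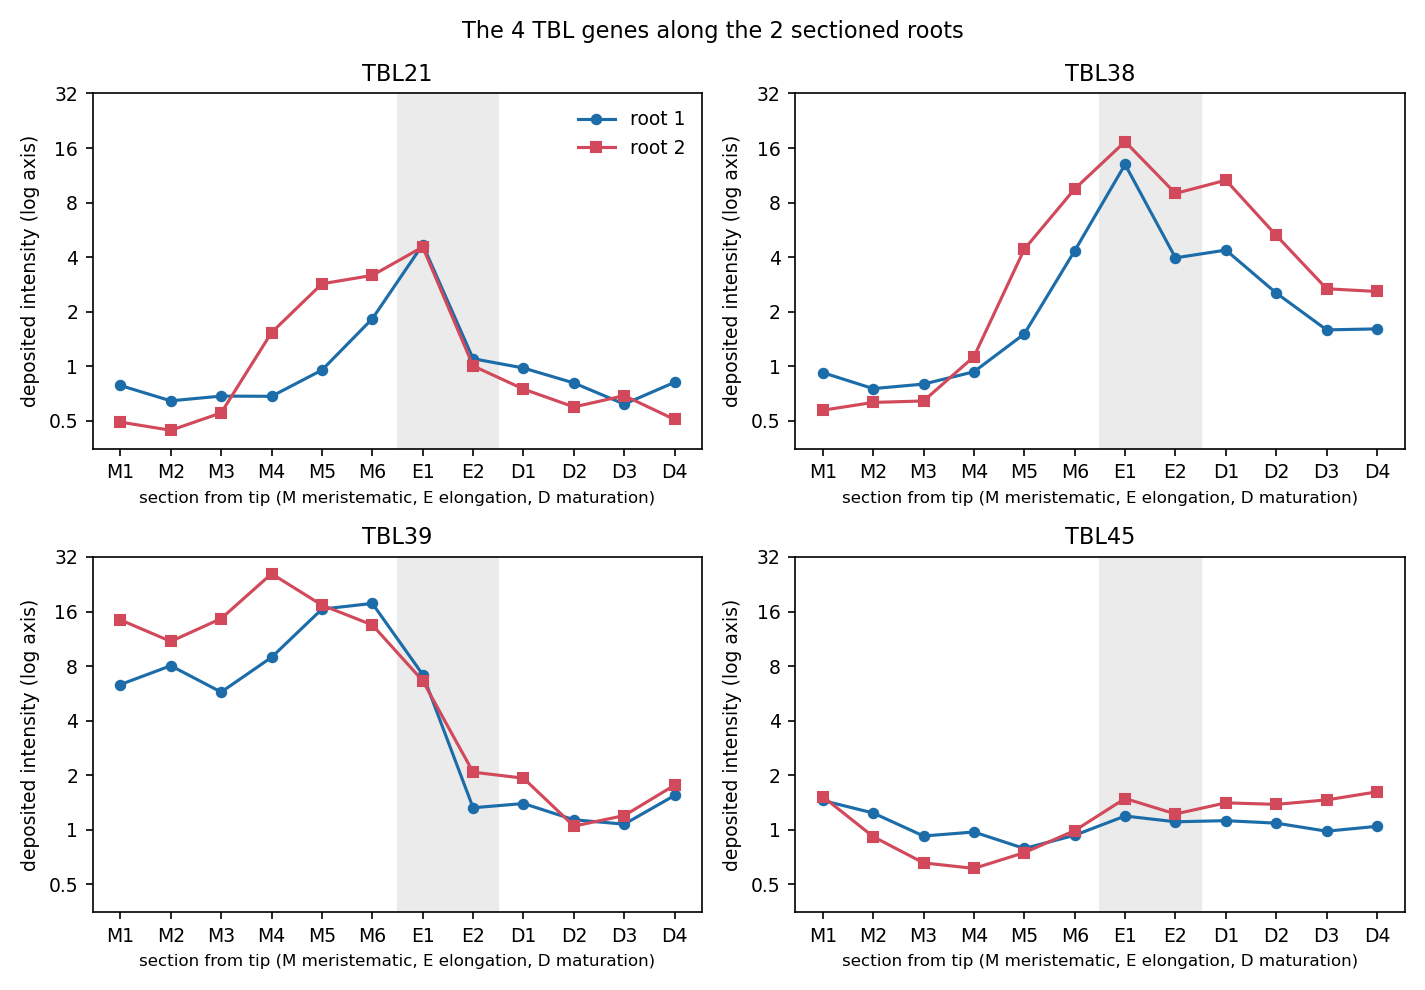
Deposited intensity (log axis) of TBL21, TBL38, TBL39 and TBL45 in the 12 sections from the tip, with 1 line per root and 1 array per point; the grey band marks the 2 elongation sections. TBL21 and TBL38 peak in the first elongation section, TBL39 is high through the meristematic sections, and TBL45 stays between 0.612 and 1.62.

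The 2 roots gave alike profiles for TBL38 and TBL39, and less so for TBL21 and TBL45. Across the 12 positions the log2 values of root 2 against root 1 had a Pearson correlation of 0.94 for TBL38, 0.93 for TBL39, 0.78 for TBL21 and 0.58 for TBL45, where the median over all probe sets was 0.25. The genes were picked for their patterns in both roots, so these figures are a description. Among the members, TBL21 and TBL38 had the most alike profiles, with correlations of 0.87 in root 1 and 0.62 in root 2 over the 12 positions. TBL38 and TBL39 had -0.15 and -0.44. All such correlations share the sections of a single root and are given without a test.

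The sorted populations separated the genes differently from the sections. TBL21 was 17.2 in COBL9 hair cells, the 98.0th percentile of that array. In the stele lines it was 0.700 in J2501, 0.622 in JO121, 0.547 in SUC2, 0.490 in S32, 0.421 in S4, 0.399 in S17 and 0.382 in RM1000, all below the middle of their arrays. The hair cell value was 24.6-fold above the next population, whose distance from background is not known. Over the whole array 2.48% of probe sets had a highest population at least 4-fold above the next, and 1.04% had COBL9 in that place.

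TBL45, flat along the root, was 21.0 in the S32 protophloem and metaphloem population, the 99.0th percentile. It was 1.12 in S17, 0.985 in J2501, 0.975 in SUC2, 0.844 in RM1000, 0.741 in JO121, 0.580 in COBL9 and 0.518 in S4. The S32 value was 18.8-fold above the next population, and 1.05% of all probe sets had S32 at least 4-fold above every other population. The mixed J2501 population, whose label includes phloem, was at 0.985 and the SUC2 companion cells at 0.975, both near the middle of their arrays. The S32 value rests on a single array. The one phloem marker of the list with a probe set, OPS, was 0.833 in S32 and 0.791 in J2501, near the array middle, so the S32 label could not be checked with it.

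TBL39 was also highest in COBL9, at 16.0, but less sharply. It was 5.60 in SUC2, 4.98 in RM1000, 4.40 in S32 and 3.78 in JO121, with a lower group at 1.75 in S17, 1.71 in S4 and 1.65 in J2501. Hair cells stood 2.86-fold above companion cells. After quantile normalization COBL9 was still highest at 11.6, but JO121 came next at 5.84, before SUC2 at 5.04. J2501, the lowest as deposited, was then at 2.67, above S17 at 1.63 and S4 at 1.41. The S4 line, labelled as meristematic xylem, was among the lowest, while TBL39 was high in all meristematic sections of the whole root.

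TBL38 was the most even of the 4 among sorted cells. It was 8.51 in S32, 6.88 in S17, 5.51 in J2501, 4.65 in SUC2, 4.20 in JO121, 3.41 in RM1000, 2.55 in S4 and 2.44 in COBL9, a range of 3.49-fold. S32 stood 1.24-fold above S17, but after quantile normalization J2501 was highest, at 9.65 against 7.65 in S32, so the top of this order is not settled. COBL9 hair cells, where TBL21 and TBL39 were highest, shared the low end of the TBL38 order with S4, and after quantile normalization S4 was the lower of these at 1.94 against 2.09 in COBL9. Without replicates, neighbours in any of these orders that lie close together cannot be ranked.

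**Figure D2:**
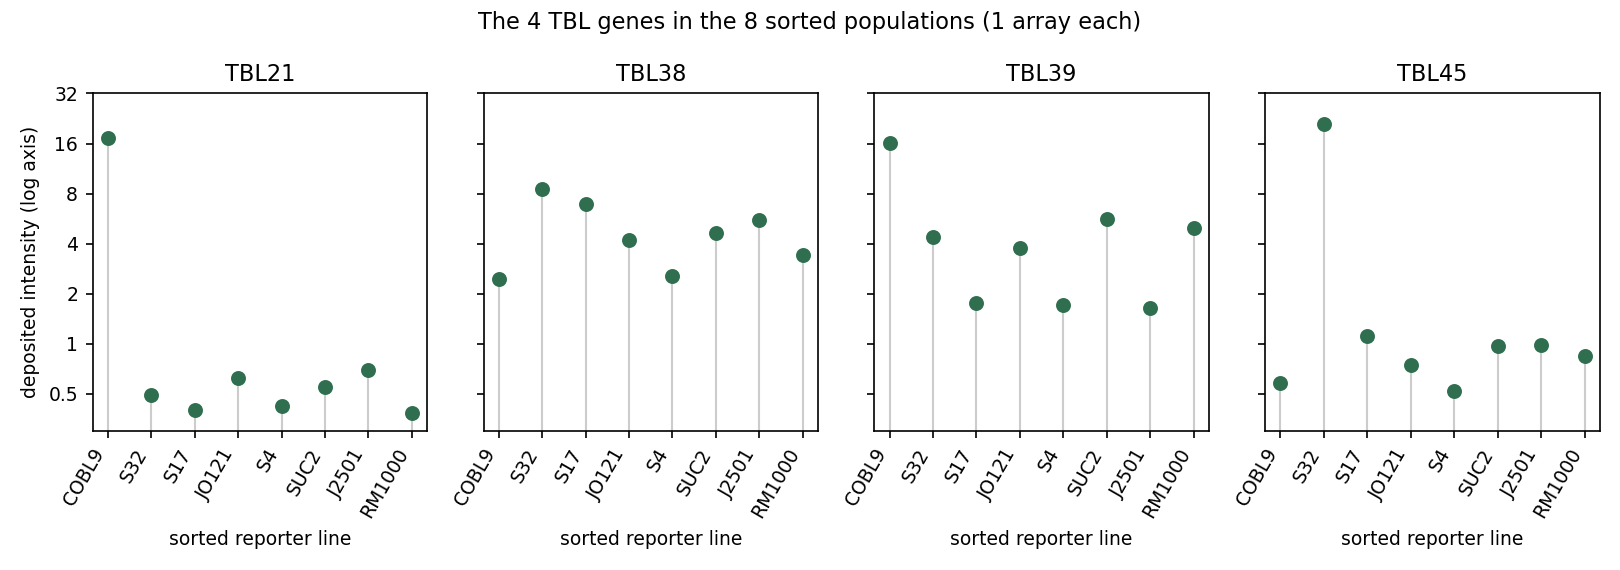
Deposited intensity (log axis) of the 4 genes in the 8 sorted populations, 1 array per point. TBL21 stands at 17.2 in COBL9 and TBL45 at 21.0 in S32 with all other populations at 1.12 or less, while TBL38 covers a 3.49-fold range and TBL39 is highest in COBL9 at 16.0.

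For some pairs of members, profiles along the root and levels in sorted cells did not go together. TBL21 and TBL38, alike along the root, had a correlation of -0.49 over the 8 sorted populations. TBL21 and TBL39 had 0.28 in root 1 and 0.36 in root 2 over positions, and 0.74 over populations, where both were highest in COBL9. TBL38 and TBL45 had 0.07 and 0.39 over positions and 0.75 over populations, where both were highest in S32, TBL38 only narrowly and not after quantile normalization. TBL38 and TBL39 were negative in both settings, with -0.15 and -0.44 over positions and -0.37 over populations. TBL21 and TBL45 had 0.09 and -0.21 over positions and -0.24 over populations. TBL39 and TBL45 had -0.23 and -0.73 over positions and 0.01 over populations. Each value over populations rests on 8 single arrays.

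The hair cell label was checked against EXPA7 and EXPA18, root hair expansins that loosen the wall, the 2 of 7 listed hair markers with a probe set. EXPA7 was 16.9 in COBL9 and 0.601 to 1.26 in the other lines, and EXPA18 was 7.05 in COBL9 and 0.472 to 1.34 elsewhere. TBL21 thus shared its highest population with both. TBL21, EXPA7 and EXPA18 all had lower intensities in the second elongation section than in the first, and parted in the section after it. In root 1 that second section is the array with the narrow spread, so a dip in intensity there need not be a dip in rank. TBL21 was lower in rank too, as given above, and ranks of the expansins are not given here. In the first maturation section EXPA7 was at its highest value in root 1 and at 94.0% of it in root 2, while TBL21 was at 20.8% and 16.4% of its own. EXPA7 was at 12.6% and 23.1% in the sixth meristematic section, where TBL21 was at 39.0% and 69.7%. Over the 12 positions TBL21 correlated with EXPA7 at 0.49 in root 1 and 0.32 in root 2.

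The zone test, limma on the 6 root-by-zone means with root as a block, used the 2 roots as replicates and a Benjamini-Hochberg adjusted p under 0.05 over all probe sets. EXPA7 was 2.33 higher (log2, SE 0.192, limma adjusted p = 0.0135) in the elongation than in the meristematic zone and EXPA18 2.54 higher (SE 0.216, limma adjusted p = 0.0136). The EXPA7 call was lost without the first elongation section of root 2 (limma adjusted p = 0.109). Between maturation and elongation zone neither expansin passed, with log2 differences of -0.19 and -0.24, where TBL21 had -1.64.

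**Figure D3:**
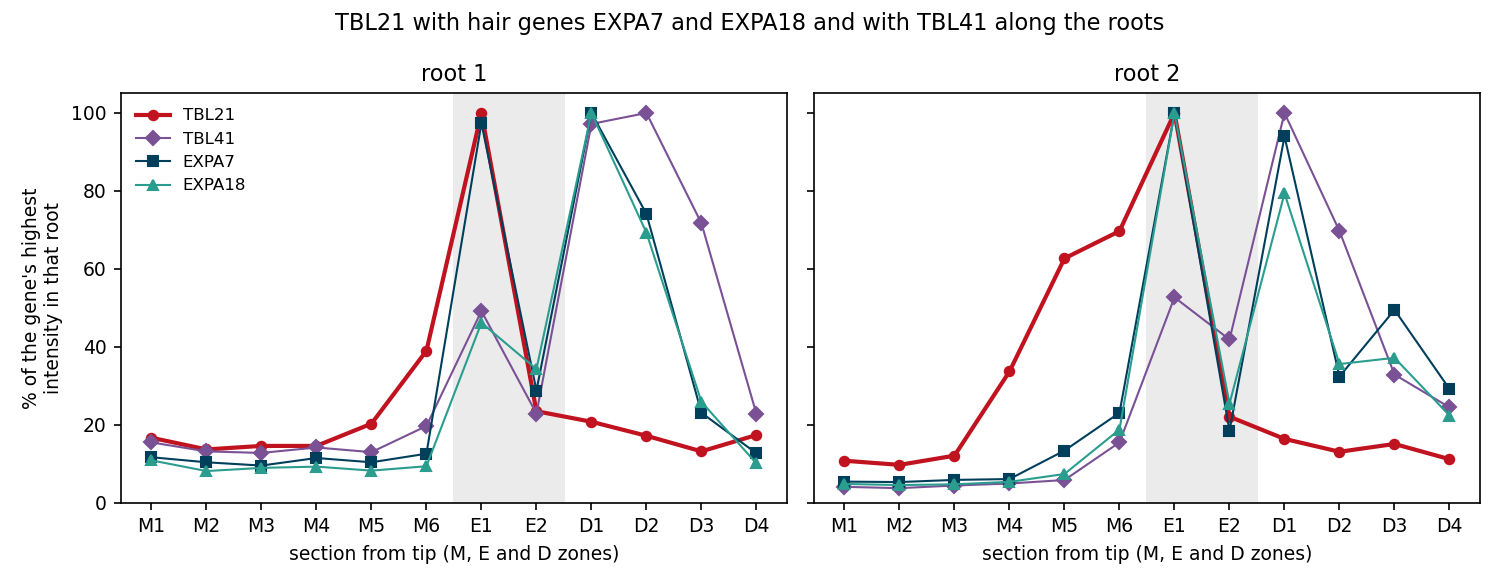
Intensity along each root as a percent of the gene's highest value in that root, for TBL21, TBL41, EXPA7 and EXPA18; 1 array per point, with the 2 elongation sections in grey. TBL21 is at 20.8% or less in every maturation section, where EXPA7 returns to its highest value in root 1 and to 94.0% of it in root 2.

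The other 19 measured TBL genes were tested, since they were not among those picked. Between elongation and meristematic zone 2 of 19 rose and 0 fell by limma, where 2.39% of all probe sets rose and 5.13% fell, and 10 of 19 had an unadjusted p under 0.05, against 24.6% of all probe sets. Without the 4 arrays of root 1 with the narrowest spread 5 of 19 rose, against 3.63% of all probe sets in that fit. TBL30, one of the xylan acetylation group, rose by 1.70 (log2, SE 0.323, limma adjusted p = 0.046). TBL34, of the same group, rose by 0.88 (SE 0.128, limma adjusted p = 0.029). TBL30 lost the call in 9 of 24 fits that each left out 1 array, and TBL34 in 3 of 24, namely the first elongation section of either root and the second of root 1. Without the root block neither passed, with limma adjusted p = 0.0844 for TBL30 and 0.133 for TBL34, nor after quantile normalization (0.138 and 0.103). The median log2 difference of the 19 was 0.11, against 0.05 over all probe sets. TBL41 had the largest rise of the 19, 2.14 (1.21 in root 1 and 3.07 in root 2), and missed the threshold (limma adjusted p = 0.0516). As a mean of the roots TBL38, with 2.81, lay above every one of the 19, but in root 2 it had 3.07, level with TBL41. TBL38 had been picked for its pattern over these same sections.

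TBL35, another xylan acetylation gene, was the other TBL gene nearest to TBL39 in this comparison, with a log2 difference of -1.20 (-0.70 in root 1 and -1.70 in root 2) that missed the threshold (limma adjusted p = 0.0548). It was named after its value was seen. TBL39 had -1.85. Between maturation and elongation zone 0 of 19 passed in either direction by limma, against 0.827% higher and 0.211% lower over all probe sets, and 4 had an unadjusted p under 0.05, against 12.5% of all probe sets. TBL37 had the largest difference, -1.18 (limma adjusted p = 0.0839), on the same side as the members TBL21, TBL38 and TBL39.

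Between maturation and meristematic zone 3 of 19 rose and 1 fell, where 6.66% of all probe sets rose and 7.07% fell. TBL41 rose most, by 2.62 (log2, SE 0.429, limma adjusted p = 0.0234), and TBL30 rose by 1.94 (SE 0.323, limma adjusted p = 0.0244). TBL34 rose by 0.89 (SE 0.128, limma adjusted p = 0.0182). Left out in turn, the first elongation section of root 1 ended the calls of TBL30 and TBL34, and the second elongation section of root 1 that of TBL34 too. TBL41 was called in all 24 such fits. Without the root block the calls of TBL41, TBL34 and TBL32 were lost (limma adjusted p = 0.0701, 0.076 and 0.0904), and under quantile normalization those of TBL30 and TBL34 (0.0854 and 0.0565). TBL32, a xylan acetylation gene read by a probe set whose design name marks it as shared between transcripts, fell by 1.10 (SE 0.25, limma adjusted p = 0.0499), a call lost in 13 of 24 such fits. TBL38, with 1.24, lay between TBL34 and TBL30, and TBL39, with -3.17, below every other measured TBL gene. Both members had been picked for opposed patterns over these same sections.

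**Figure D4:**
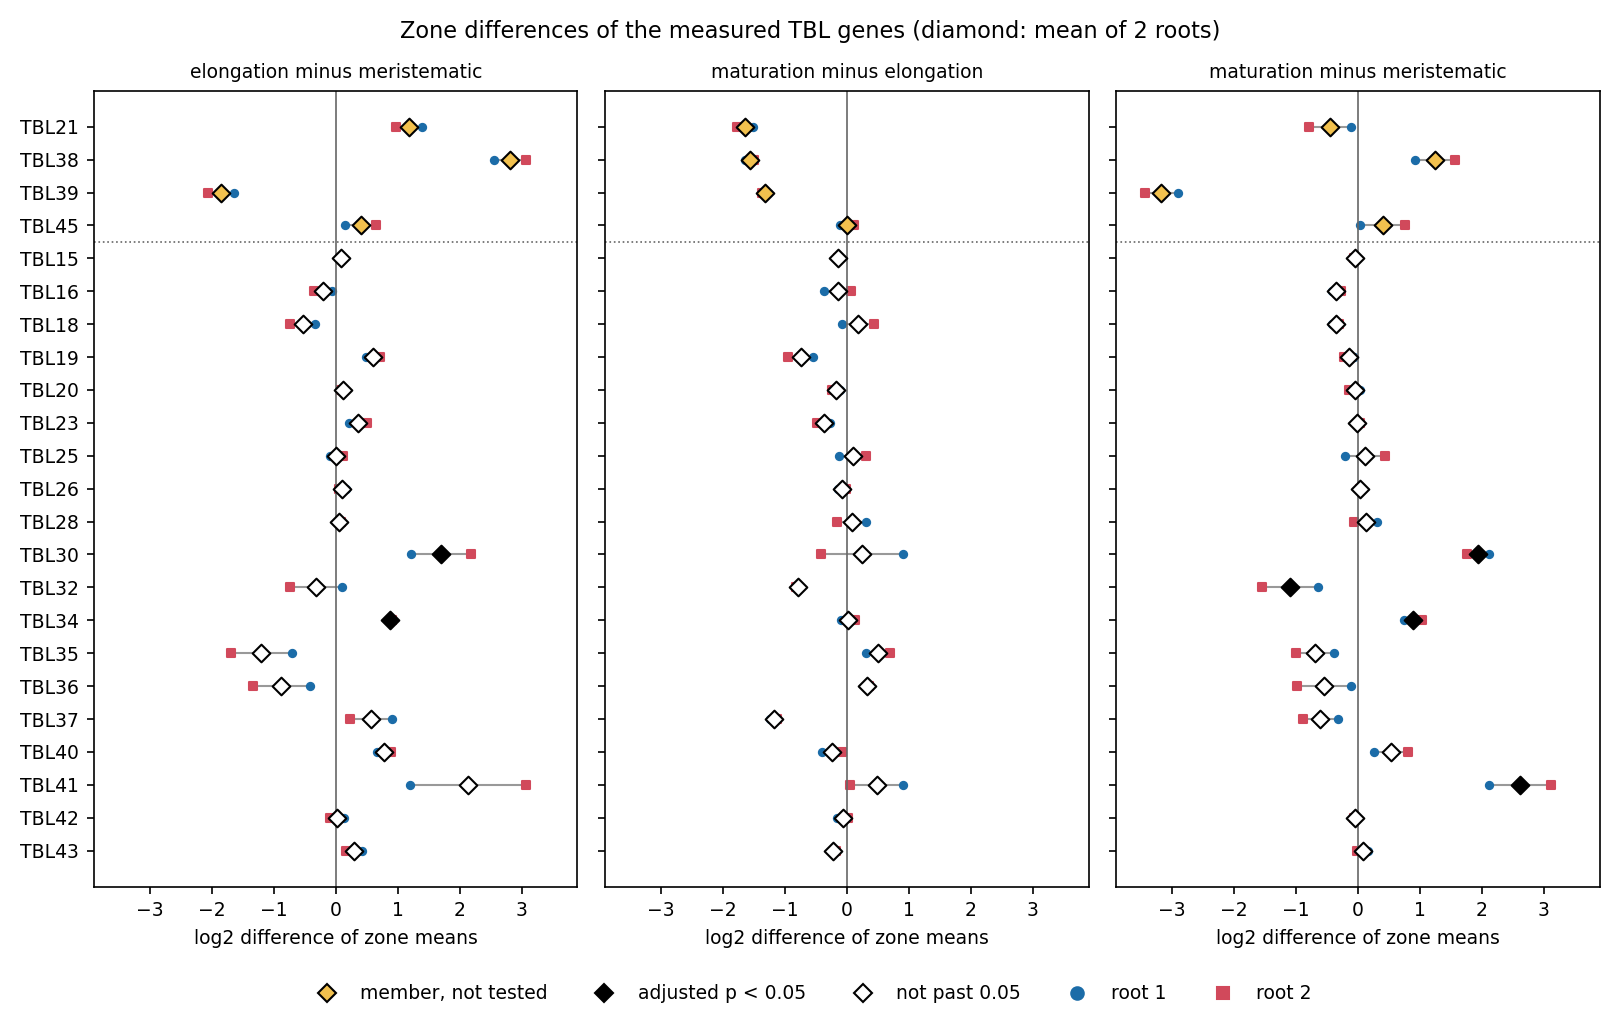
Log2 differences of zone means for the 4 members (yellow, not tested) above the other 19 measured TBL genes, which are black where limma's adjusted p was under 0.05; diamonds are means of 2 roots, small points the single roots. Positive values are higher in the zone named first. Among the diamonds, TBL38 at 2.81 and TBL39 at -1.85 bound the elongation panel, and TBL39 at -3.17 is lowest in the maturation against meristem panel.

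Over the 12 positions, limma's F test called 5 of the 19 other TBL genes, 26.3%, against 19.2% of all probe sets. They were TBL34 (limma adjusted p = 0.000291), TBL37 (0.000299), TBL41 (0.000716), TBL30 (0.000798) and TBL19 (0.0106). All 5 stayed called in each of the 24 fits that left out 1 array. The F test counts sections of a root as separate values although they are not independent, so its p-values may be too small. TBL41 was highest at 6.40 in the second maturation section of root 1 and at 17.1 in the first maturation section of root 2, beyond the peak section of TBL21. At that peak section TBL41 was already at 3.15 in root 1 and 8.99 in root 2. TBL37 was highest at 13.2 in the first elongation section of root 1 and 13.8 in the sixth meristematic section of root 2.

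In sorted cells none of the 19 had COBL9 or S32 at least 4-fold above every other population, the pattern for which TBL21 and TBL45 had been picked. Over all probe sets COBL9 was in that place for 1.04% and S32 for 1.05%, so few or none of 19 would be there at those shares. Of the 19, 1 had a population at least 4-fold above the next: TBL34, at 4.87 in S4 against 1.18 in S32. Across the array 0.207% of probe sets had S4 in that place. The highest population was S4 for 7 of the 19, COBL9 for 4 and S32 for 2, where it was S4 for 23.5% of all probe sets, COBL9 for 16.3% and S32 for 8.56%. In every sorted array 5 of the 19 were under 1, against 36.3% of all probe sets. The S4 array had the widest spread of log2 intensities, 1.53 (SD). Their median ratio of highest to next population was 1.13, against 1.16 for all probe sets. The 4 highest in COBL9 were TBL18 at 4.67, with S4 close at 4.23, TBL32 at 4.10, TBL41 at 2.78 and TBL25 at 1.78.

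Genes with profiles most like each member were ranked by the smaller of the correlations in the 2 roots, among 684 probe sets with a single gene, a symbol and a span of at least 1 (log2). For TBL21 they were XTH21 (0.97 in root 1 and 0.89 in root 2), TBL37 (0.87 and 0.94), THE1 (0.82 and 0.87), SDH1-2 (0.92 and 0.82) and TBL19 (0.82 and 0.85). XTH21 is a xyloglucan-remodelling enzyme of the wall, THE1 a receptor kinase that monitors the wall, and SDH1-2 a subunit of mitochondrial succinate dehydrogenase. TBL19 lies next to TBL21 on chromosome 5 in TAIR10.1. Of these 5, SDH1-2 was also highest in COBL9 by far, at 7.02 against 0.659 in J2501, and THE1 reached 5.41 there against 4.25 in S4. XTH21 was highest in JO121, at 7.70, and had 0.527 in COBL9, and TBL37 and TBL19 were highest in S4, at 8.11 and 2.40.

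For TBL38 the nearest genes were PLIM2b (0.92 and 0.91), SP1L4 (0.88 and 0.96), XTH18 (0.88 and 0.91), RALFL27 (0.91 and 0.87) and XTH21 (0.87 and 0.85). PLIM2b is an actin-bundling LIM protein, SP1L4 belongs to a family of microtubule-associated proteins, XTH18 is related to XTH21, and RALFL27 encodes a signalling peptide. SP1L4, XTH18 and RALFL27 were highest in COBL9, at 6.24, 10.1 and 2.44, where TBL38 was at 2.44. Over the whole array COBL9 was the highest population for 16.3% of probe sets.

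For TBL39 they were DRT100 (0.95 and 0.92), MTP11 (0.91 and 0.97), iqd32 (0.89 and 0.95), IQD31 (0.86 and 0.87) and CLUB (0.85 and 0.96). MTP11 is a manganese transporter, the IQD proteins bind calmodulin, and CLUB is a subunit of a vesicle tethering complex needed for cytokinesis. DRT100 was 15.8 in S32 and 11.5 in COBL9, and MTP11 was highest in COBL9 at 7.59. TBL45 itself spanned 0.95 (log2), less than the 1 required of the candidates, so genes as flat as TBL45 were not compared. Among those compared, its best matches were weaker: scpl20 had 0.73 and 0.82, HOS3-1 0.65 and 0.77, CML43 0.53 and 0.53, CYP51G2 0.66 and 0.52, and IQD22 0.72 and 0.50. None of those 5 was highest in S32, as 8.56% of all probe sets were.

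Genes that build the polymers that TBL proteins act on were measured for 4 of 13 listed xyloglucan genes, 3 of 17 xylan genes and 1 of 11 mannan genes. The suppliers of acetyl groups, the pectin acetylesterases, the pectin synthesis genes and the cellulose synthases had no probe set with a single listed gene here. Of the 4 CSLC genes, which make the xyloglucan backbone, 0 passed in any of the 3 zone comparisons by limma, with 1, 1 and 0 at an unadjusted p under 0.05, against 24.6%, 12.5% and 28.4% of all probe sets. CSLC4 had 0.81 (log2) in maturation against meristem and CSLC12 had 0.78 in elongation against meristem, both short of the threshold (limma adjusted p = 0.197 and 0.142). Of the 3 xylan genes, 1, 1 and 3 had an unadjusted p under 0.05 by limma in the same 3 comparisons. In maturation against meristem IRX15 rose by 0.52 and IRX10 by 0.50, short of the threshold (limma adjusted p = 0.0655 and 0.0959). IRX15-L rose there by 1.47 (SE 0.291, limma adjusted p = 0.036). That call was lost in 3 of 24 fits, those without elongation section 2 or maturation section 3 of root 1 or elongation section 1 of root 2. Without the root block it was lost too (limma adjusted p = 0.0827). IRX15-L was on the same side there as TBL38 and opposite to TBL39.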

How the data were processed

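RNA from 25 root sections and 8 sorted populations was labelled after two-cycle amplification, per the labels' protocols, and hybridised to Affymetrix arrays. The authors deposited 1 processed intensity per probe set and array on a linear scale; how they corrected background, summarised probes and normalized is not given in the sources used here. Values were used as deposited after log2, with no filter and no offset. Of 22746 probe sets, 13513 were listed with 1 gene, 503 with several and 8730 with none; 13436 of the single-gene ones matched the TAIR10.1 annotation. No reads lie behind these values, so the number of arrays limits precision.

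Members and gene lists were chosen with earlier results of these data known. Sections of a root are not independent, so log2 values were averaged per zone and root (6 values, 2 residual degrees of freedom) and tested with limma 3.58.1 in R 4.3.3, with root as a block and Benjamini-Hochberg adjustment over all probe sets. Variation over 12 positions used limma's F test on 24 arrays with position and root. The labels name the root of each section. Deviations of sections of the same root had a median correlation of 0.477 (-0.233 to 0.834 over 66 pairs), and the block was kept. The 2 roots are separate plants, and the block takes out the overall difference between them. The zone p-values therefore rest on how far zone differences varied between 2 plants, with a spread moderated over probe sets. The F test over positions counts the sections of a root as separate values, so its p-values are not based on plants alone.

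Named genes were the 4 members, up to 3 genes per list past the threshold in each direction or the 2 largest changes where none passed, and the 5 genes most like each member. Of the marker lists, 2 of 7 hair genes, 1 of 10 phloem genes (OPS, 0 calls), 1 of 10 xylem genes (LHW) and 3 of 8 pericycle and primordium genes were measured. LHW was lower in elongation than in meristematic zone (-0.90) and in maturation than in meristematic zone (-0.96; limma adjusted p = 0.029 and 0.0164, both lost without the root block at 0.129 and 0.0617, and the elongation call also in 3 of 24 fits without 1 array and under quantile normalization at 0.064), and was highest in S4 at 5.87. PUCHI was higher in maturation than in meristematic zone (0.88; limma adjusted p = 0.0446, lost in 8 of 24 fits without 1 array and at 0.126 without the root block), and was highest in RM1000 at 4.87. Columella, endodermis and dividing-cell markers had no single-gene probe set here. Scripts ran in Python 3.11.15 and R and were tested on simulated data. Alternatives were quantile normalization, an offset of 0.5, a filter on dim probe sets, no root block and each section left out in turn. Sequences and genome coordinates are not given because no genome of the array's build was used here.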

Additional observations from a re-analysis of the deposited data

How the results depend on the processing

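Directions of the members' zone differences held under every alternative run, except TBL45 between maturation and elongation, which lay at 0.00. Quantile normalization gave maturation minus elongation differences (log2) of -1.46 for TBL21, -1.99 for TBL38 and -1.22 for TBL39, put TBL38 lower in S32 than in J2501, the highest population there, by a log2 difference of -0.33, and gave 1 other TBL gene higher in elongation, 1 higher in maturation than in meristem, and 9 varying over positions. An offset of 0.5 gave elongation minus meristem differences of 0.88 for TBL21 and 2.345 for TBL38, maturation minus elongation differences of -1.22, -1.41 and -1.11 for TBL21, TBL38 and TBL39, a maturation minus meristem difference of -2.77 for TBL39 and a COBL9 difference of 3.88 for TBL21; other TBL genes then counted 1 higher in elongation, and 1 higher and 0 lower in maturation against meristem. Without the replicate block, root, the counts of other TBL genes were 0 higher in elongation, and 1 higher and 0 lower in maturation against meristem, while 5 varied over positions as with it. The filter on dim probe sets, values of at least 1 on at least 6 arrays, gave 4 higher and 1 lower in elongation against meristem, and 1 lower in maturation against elongation. Without the 4 narrowest root 1 arrays, an alternative chosen after seeing the data, the elongation minus meristem differences were 1.69, 3.195 and -1.30 and the maturation minus elongation differences -2.25, -2.09 and -2.04 for TBL21, TBL38 and TBL39, and other TBL genes counted 5 higher in elongation, 1 lower in maturation against elongation and 0 lower in maturation against meristem.

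With each of 24 sections left out in turn, elongation minus meristem ran from 0.64 to 1.73 for TBL21, 2.38 to 3.24 for TBL38, -2.46 to -1.24 for TBL39 and 0.33 to 0.48 for TBL45. Maturation minus elongation ran from -2.19 to -1.10, -1.99 to -1.14, -1.93 to -0.71 and -0.07 to 0.07 in the same order of genes, and maturation minus meristem from -0.59 to -0.30, 1.03 to 1.51, -3.245 to -3.08 and 0.35 to 0.48. The other TBL genes counted 0 (without elongation section 1 of root 1) to 5 (without elongation section 2 of root 2) higher and 0 to 1 lower in elongation against meristem, 0 higher and 0 to 1 lower in maturation against elongation, 1 to 3 higher and 0 to 2 lower in maturation against meristem, and 5 to 7 varying over positions. The cause of these changes was not tested. With 2 roots and 1 array per sorted population, and no detection calls, values near 1 have no known distance from background.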

Other observations

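Among the 8 measured wall polymer genes, 2 had COBL9 at least 4-fold above every other line, as TBL21 had. CSLA3, of the family that makes mannan backbones, was 6.81 in COBL9 hair cells and 0.405 to 0.775 in the other 7 lines, 8.78-fold above the next. CSLC12 was 4.23 in COBL9 and 0.504 to 0.831 in the others, 5.09-fold above the next. Neither passed the zone tests. Both stayed at 3 or less in every section, CSLC12 being highest in the first elongation section of root 2 at 2.97. These are single arrays, and COBL9 was at least 4-fold above every other line for 1.04% of probe sets.

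The columella array had an intensity of 0.985 for TBL21, 1.12 for TBL38, 0.994 for TBL39 and 0.996 for TBL45. In rank these were the 45.0th, 93.7th, 51.3rd and 52.9th percentiles of an array whose log2 values spread by 0.137 (SD). TBL38, near the top there, was at the 46.7th and 22.6th percentiles in the first meristematic sections of roots 1 and 2. TBL39, near the middle there, was at the 98.6th and 98.1st.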
